A study of Mus musculus with 4 samples.

Results

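Collagens and the other genes of the fibroblast matrix were examined in neutrophils sorted from the mouse heart after myocardial ischemia and reperfusion (MI/R). The list held 40 genes, of 25655 in the gene table, and was made up of 15 collagen chains and 25 other genes of the matrix, its assembly and the fibroblast surface. By their symbols 39 were found, and *Ctgf* was found under its present symbol *Ccn2*. All 40 had a mean above 1 TPM, a level scaled for transcript length and depth, over the 4 libraries, and 36 had a mean above 10 TPM.

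Fibroblasts are the main source of the collagen scaffold of the heart. After infarction they are activated and lay down type I and type III collagen, which form the fibrils of the scar, together with matricellular proteins such as periostin and tenascin C, which are scarce in the uninjured heart. Type IV, XV and XVIII collagens belong instead to basement membranes, which surround vessels and muscle cells and are made in large part by endothelial and mural cells.

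The study compared adult male WT and *Cd300a-/-* mice on a C57BL/6 background, in which the knockout lacks CD300a, an inhibitory receptor for phosphatidylserine. A coronary artery was occluded and reopened, and hearts were taken on day 3. CD45.2+CD11b+Ly6G+ cells were sorted as SiglecF hi or SiglecF lo after digestion with collagenase II and DNase I, and cells of 8 mice were pooled into each library. There was 1 library per group, so no difference below has a replicate check and no p-value is given. Intervals are 95% Poisson counting intervals unless another method is named, and cover counting error only.

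The libraries held 19278243 counts (WT SiglecF hi), 17632989 (*Cd300a-/-* SiglecF hi), 9631901 (WT SiglecF lo) and 10988619 (*Cd300a-/-* SiglecF lo). Where 4 values are listed in a row below, they follow this order. *Cd300a* was at 163, 0.740, 127 and 1.06 TPM, which fits the genotype labels, and *Siglecf* at 354, 405, 11.3 and 15.3 TPM, which fits the subset labels. The transcript of the sorting marker *Ly6g* was at 11.1, 41.9, 330 and 889 TPM, so it was far lower in both SiglecF hi libraries although the protein was part of the gate. The other gating genes were present in every library, *Itgam* at 337, 388, 367 and 550 TPM and *Ptprc* at 646, 710, 608 and 683 TPM.

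The 40 genes together took 0.996% of all counts in WT SiglecF hi (exact binomial interval, 0.991 to 1.00), 0.750% in *Cd300a-/-* SiglecF hi (0.746 to 0.754), 0.699% in WT SiglecF lo (0.694 to 0.704) and 0.606% in *Cd300a-/-* SiglecF lo (0.601 to 0.610). Their share was therefore highest in WT SiglecF hi and lowest in *Cd300a-/-* SiglecF lo. Collagens alone summed to 1574, 1056, 771 and 687 TPM, and the other matrix genes to 4607, 3974, 3332 and 2750 TPM. Collagens made up 25.5% of the summed TPM of the list in WT SiglecF hi and between 18.8% and 21.0% in the other 3 libraries. Of the 40 genes, 30 had their highest TPM in WT SiglecF hi (36.1% of the 11472 genes with a mean above 1 TPM), 5 in WT SiglecF lo (11.3%), 4 in *Cd300a-/-* SiglecF hi (40.3%) and 1 in *Cd300a-/-* SiglecF lo (12.4%). The lowest TPM lay in *Cd300a-/-* SiglecF lo for 27 genes, beside 44.9% of all genes, and most genes had a lower TPM in SiglecF lo than in SiglecF hi.

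**Figure D1:**
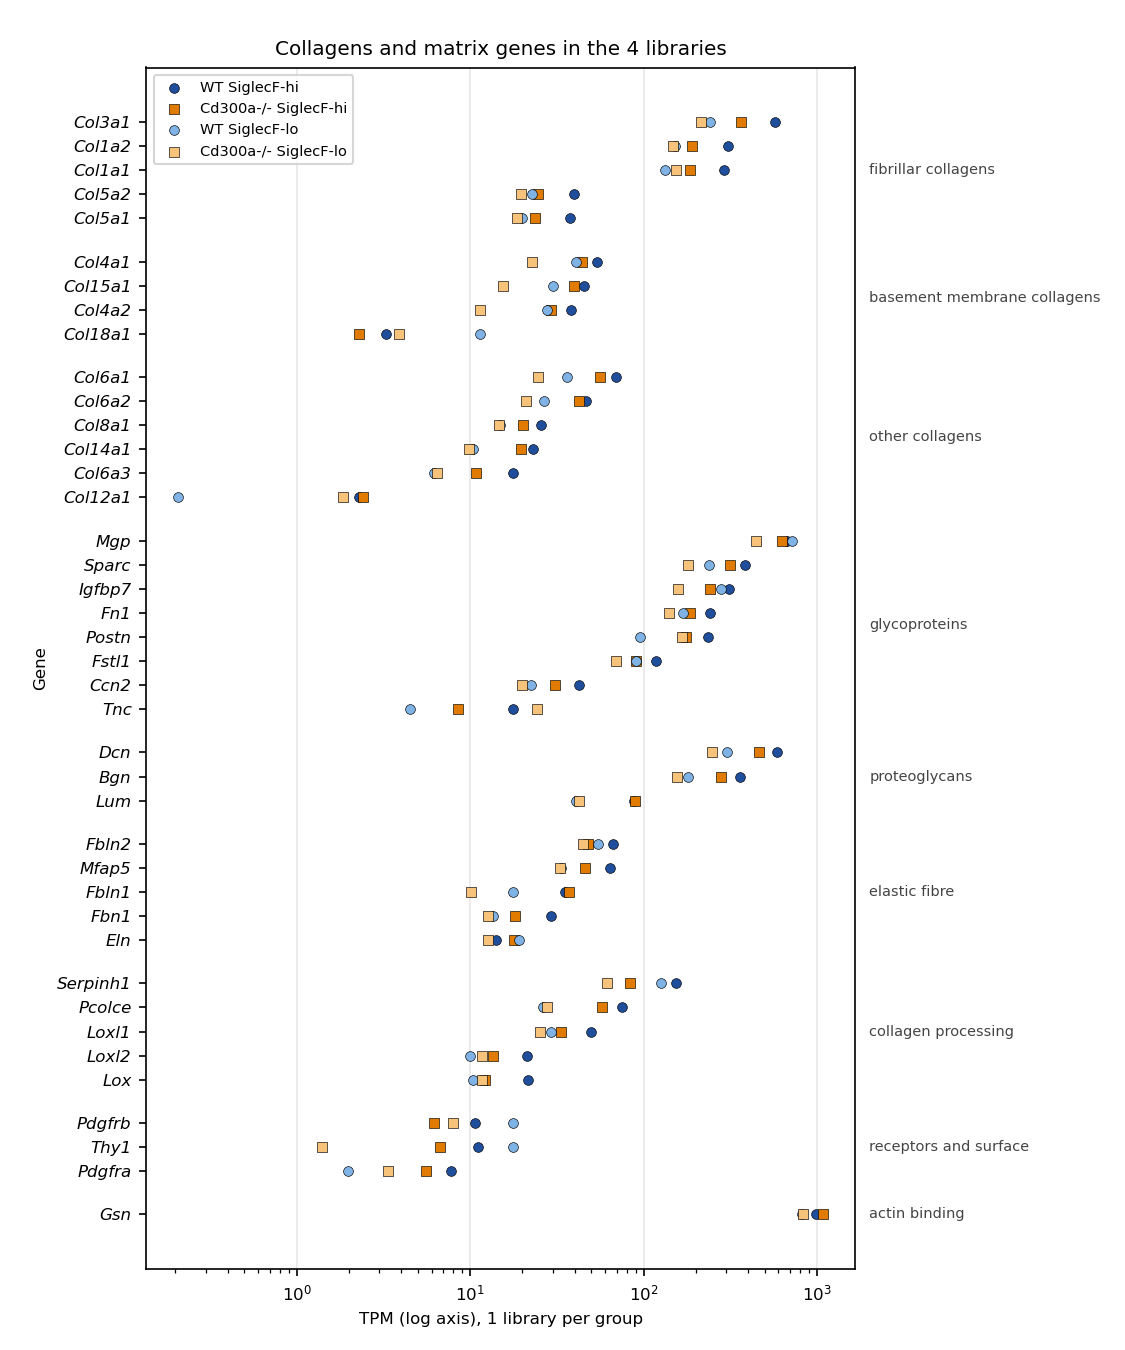
TPM of each of the 40 genes (log axis) in the 4 libraries, 1 point per library, grouped by role, with blue circles for WT and orange squares for *Cd300a-/-*. For 30 genes the WT SiglecF hi point lies farthest to the right, and *Gsn* is the most abundant gene with a mean of 929 TPM.

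Among the fibrillar collagens, *Col3a1*, the chain of the type III homotrimer, was the most abundant, at 572, 364, 240 and 215 TPM. *Col1a1*, the α1 chain of type I collagen, was at 291, 186, 133 and 155 TPM. Its partner *Col1a2*, the α2 chain, was at 308, 191, 151 and 147 TPM. All of these were highest in WT SiglecF hi, while the order of both SiglecF lo libraries differed between the chains. Type V collagen, which sets the diameter of the fibrils, was less abundant, with *Col5a1* at 37.6, 23.7, 20.0 and 18.7 TPM and *Col5a2* at 39.8, 24.7, 22.6 and 19.7 TPM.

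The proportions between chains were compared within each library. The TPM ratio of *Col1a1* to *Col1a2* was 0.942 (0.921 to 0.964), 0.973 (0.944 to 1.00), 0.878 (0.841 to 0.917) and 1.05 (1.01 to 1.09). The ratio of *Col5a1* to *Col5a2* was 0.944, 0.959, 0.885 and 0.948, with overlapping intervals. The ratio of *Col3a1* to *Col1a1* was 1.97 (1.93 to 2.01) and 1.96 (1.91 to 2.01) in the SiglecF hi libraries, and 1.81 (1.74 to 1.88) and 1.39 (1.34 to 1.44) in the SiglecF lo libraries. Type III collagen thus stood lowest against type I in *Cd300a-/-* SiglecF lo. The ratio of *Col4a1* to *Col4a2*, the chains of the common basement membrane network, was 1.41 (1.33 to 1.49) in WT SiglecF hi and 1.46 (1.34 to 1.59) in WT SiglecF lo. It had an interval of 1.41 to 1.61 in *Cd300a-/-* SiglecF hi and was 1.99 (1.77 to 2.24) in *Cd300a-/-* SiglecF lo, whose interval lay above those of the other 3 libraries.

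The basement membrane collagens were less abundant than type I and type III collagen. *Col4a1* was at 53.9, 43.9, 40.6 and 22.7 TPM, and *Col4a2* at 38.3, 29.2, 27.8 and 11.4 TPM. *Col15a1*, a chondroitin sulfate collagen of vessel and muscle basement membranes, was at 45.3, 39.9, 29.9 and 15.5 TPM. Each of these was lowest in *Cd300a-/-* SiglecF lo. *Col18a1*, the precursor of endostatin, was the only collagen of the list that was highest in WT SiglecF lo, at 3.26, 2.28, 11.5 and 3.87 TPM.

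Of the remaining collagens, *Col6a1*, a chain of the beaded type VI microfibrils, was at 69.1, 56.2, 36.0 and 24.5 TPM, and *Col6a2* at 46.7, 42.6, 26.5 and 21.1 TPM. *Col6a3*, the largest chain of the same molecule, was at 17.7, 10.9, 6.21 and 6.41 TPM. The ratio of *Col6a1* to *Col6a3* was 3.91, 5.18, 5.80 and 3.82, and that of *Col6a1* to *Col6a2* was 1.48, 1.32, 1.36 and 1.16, so these chains did not keep one proportion. *Col8a1*, a short-chain collagen of vessel walls, was at 25.7, 20.1, 14.9 and 14.6 TPM. The fibril-associated *Col14a1* was at 23.2, 19.8, 10.3 and 9.86 TPM. *Col12a1*, a fibril-associated collagen, was the scarcest gene of the list, at 2.30, 2.41, 0.208 and 1.86 TPM, from 245, 230, 13 and 128 counts.

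The most abundant gene of the list was *Gsn*, which encodes the actin-severing protein gelsolin and is also made by leukocytes, at 987, 1080, 816 and 833 TPM. Its highest TPM was 1.32 times its lowest, the smallest such ratio in the list. *Mgp*, an inhibitor of calcification made by fibroblasts and vessel cells, was at 673, 630, 715 and 446 TPM. *Dcn*, the small leucine-rich proteoglycan decorin, was at 586, 465, 302 and 249 TPM. *Bgn*, encoding biglycan, was at 360, 279, 180 and 155 TPM. Its relative *Lum*, encoding lumican, had genotype ratios whose intervals included 0 in each subset, with 88.4, 88.8, 40.5 and 42.7 TPM.

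The first question was how loss of CD300a related to these genes in the SiglecF hi subset. Ratios are given as log2 of the (TPM + 1) ratio of *Cd300a-/-* to WT, and a gene is counted as past the threshold when this is beyond 0.5 in either direction. In SiglecF hi cells, 14 of the 40 genes were past the threshold lower in *Cd300a-/-*, beside 7.93% of all genes with a mean above 1 TPM. None was past it higher, beside 7.03% of all genes. The median was -0.38 for the collagens and -0.42 for the other matrix genes, beside 0.026 for all genes. Without the 4 basement membrane collagens the collagen median was -0.64, and at a threshold of 1 the count of lower genes was 0. For 35 of the 40 genes the counting interval lay below 0, beside 25.7% of all genes, and for *Eln* and *Gsn* it lay above 0, beside 32.6%, a rule that small ratios pass where counts are many. In bulk samples such as these, fewer cells of a type and less RNA per cell cannot be told apart.

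All 5 fibrillar collagens were past the threshold, and within a narrow range. Their ratios were -0.69 (-0.73 to -0.65) for *Col1a2*, -0.67 (-0.76 to -0.57) for *Col5a2*, -0.65 (-0.68 to -0.62) for *Col3a1*, -0.65 (-0.73 to -0.56) for *Col5a1* and -0.64 (-0.68 to -0.61) for *Col1a1*. The only other collagen past it was *Col6a3*, at -0.66 (-0.76 to -0.55). None of the 4 basement membrane collagens was, and they ran from -0.38 for *Col4a2* to -0.18 for *Col15a1*. *Col6a2*, at -0.13, *Col14a1*, at -0.22, *Col6a1*, at -0.29, and *Col8a1*, at -0.34, lay closer to 0, and the interval of *Col12a1* (-0.13 to 0.23) spanned it.

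Genes that process fibrillar collagen were also lower in *Cd300a-/-* than in WT SiglecF hi cells. *Serpinh1*, the collagen chaperone HSP47 of the endoplasmic reticulum, was at 154, 83.5, 126 and 61.7 TPM, a ratio of -0.87 (-0.96 to -0.78). *Lox*, a lysyl oxidase that cross-links collagen and elastin, was at 21.7, 12.1, 10.4 and 11.7 TPM (-0.79). Its relatives *Loxl1* (49.6, 33.2, 29.5 and 25.3 TPM) and *Loxl2* (21.3, 13.6, 9.94 and 11.8 TPM) had ratios of -0.56 and -0.61. *Pcolce*, the enhancer of procollagen C-proteinase, was at 75.1, 57.6, 26.2 and 27.7 TPM and did not reach the threshold, at -0.38. Of these 5 processing genes, 4 were therefore past it.

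The glycoproteins and proteoglycans were mostly lower by smaller amounts. *Fn1*, encoding fibronectin, was at 241, 184, 169 and 141 TPM (-0.39). *Sparc*, a collagen-binding matricellular protein, was at 385, 315, 239 and 181 TPM (-0.29). *Fstl1*, a secreted glycoprotein of the cardiac stroma, was at 117, 90.0, 90.4 and 69.0 TPM (-0.38). *Ccn2*, encoding connective tissue growth factor, was at 42.6, 30.8, 22.5 and 20.0 TPM (-0.45). None of these reached the threshold, nor did *Dcn* (-0.33) or *Bgn* (-0.37). Of the 8 glycoproteins, only *Tnc* was past it, at -0.97 (-1.10 to -0.83), the lowest ratio of the list in this comparison.

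Among the elastic fibre genes, *Fbn1*, encoding the microfibril protein fibrillin-1, was at 29.2, 18.2, 13.5 and 12.6 TPM, a ratio of -0.66 in SiglecF hi. *Eln*, encoding tropoelastin, went the other way, at 14.2, 17.9, 19.1 and 12.6 TPM, with a ratio of 0.31 (0.15 to 0.48). *Fbln1*, encoding fibulin-1, was at 35.3, 37.1, 17.7 and 10.2 TPM, with a ratio near 0. *Fbln2* (66.7, 48.0, 54.3 and 44.9 TPM) and *Mfap5* (63.9, 46.2, 33.4 and 33.2 TPM) were lower by 0.5 or less. The genes of elastic fibres thus did not share 1 direction.

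In SiglecF lo cells the pattern was another one. Past the threshold, 12 of the 40 genes were lower in *Cd300a-/-*, beside 24.5% of all genes tested, and 4 were higher, beside 20.7% of all genes. Both shares are broad among all genes, so the count of lower genes is near the background and says little of the list as such. The median was -0.16 for the collagens and -0.21 for the other matrix genes, beside -0.022 for all genes.

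What differed was which collagens were lower. None of the 5 fibrillar collagens passed the threshold, and their ratios ran from -0.19 for *Col5a2* to 0.22 for *Col1a1* (0.16 to 0.27). All 4 basement membrane collagens did, at -1.36 (-1.58 to -1.14) for *Col18a1*, -1.21 (-1.37 to -1.06) for *Col4a2*, -0.91 (-1.05 to -0.76) for *Col15a1* and -0.81 (-0.93 to -0.69) for *Col4a1*. *Col6a1* was the only other collagen lower past it, at -0.54, and *Col12a1* was higher, at 1.24 (1.03 to 1.45). With so few counts in WT, the size of that ratio depends on the pseudocount and scaling, and it was 2.67 with a pseudocount of 0.1 TPM and 2.54 with counts scaled by the trimmed mean of M values (TMM).

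Summed over the classes, fibrillar collagens were at 1249, 788, 567 and 555 TPM. Between genotypes, their log2 ratio was -0.66 (-0.68 to -0.64) in the SiglecF hi subset, against -0.031 (-0.061 to -0.00034) for SiglecF lo. Basement membrane collagens were at 141, 115, 110 and 53.5 TPM, with ratios of -0.29 (-0.34 to -0.24) and -1.04 (-1.12 to -0.96). The SiglecF lo ratio minus the SiglecF hi ratio was 0.63 (0.60 to 0.67) for the fibrillar class and -0.75 (-0.84 to -0.66) for the basement membrane class. The classes thus differed between subsets in opposite directions, by more than counting error. Both classes had the same sign in the genotype comparisons with TMM-scaled counts and with centred ratios, although the fibrillar ratio in SiglecF lo was then only -0.0046 and -0.0085.

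**Figure D2:**
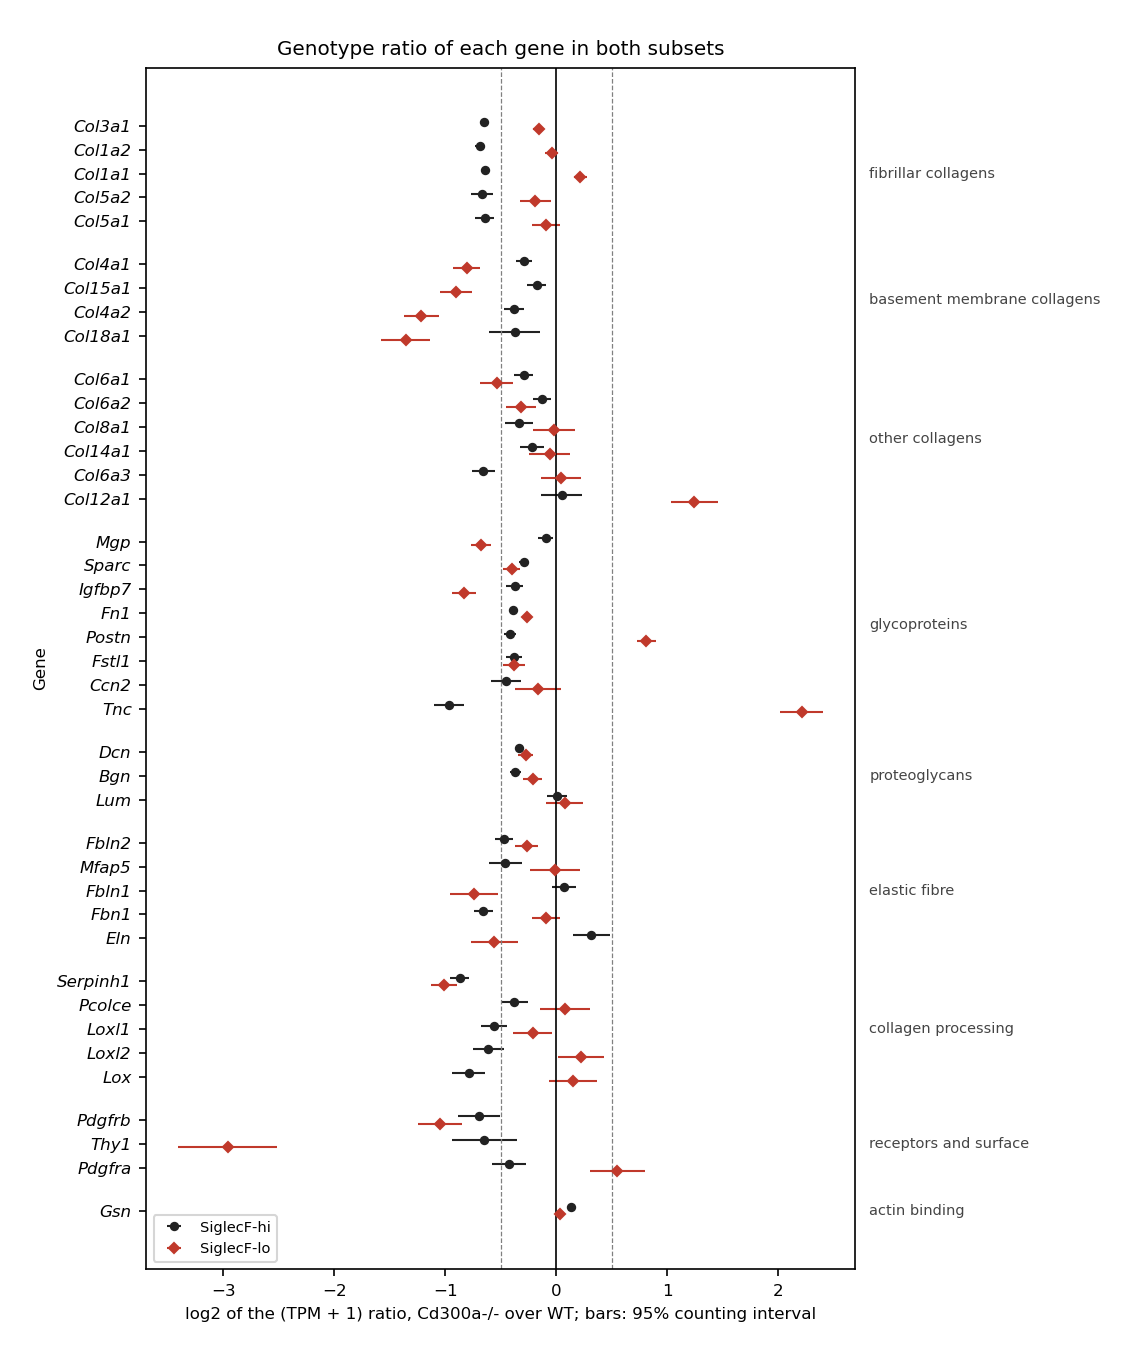
Log2 of the (TPM + 1) ratio of *Cd300a-/-* to WT for each gene in SiglecF hi (black circles) and SiglecF lo (red diamonds), with 95% counting intervals and dashed lines at the threshold of 0.5. Fibrillar collagens lie near -0.65 in SiglecF hi and near 0 in SiglecF lo, basement membrane collagens are lower in SiglecF lo, and *Tnc* and *Thy1* lie farthest out.

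*Tnc*, *Postn* and *Pdgfra* were, with *Col12a1*, the genes past the threshold higher in *Cd300a-/-* SiglecF lo. *Tnc*, encoding tenascin C, was at 17.7, 8.55, 4.48 and 24.4 TPM, from 1204, 522, 179 and 1073 counts. It was the only gene of the list with its highest level in *Cd300a-/-* SiglecF lo, where its ratio to WT was 2.21 (2.02 to 2.40). *Postn*, encoding periostin, was at 234, 175, 95.2 and 168 TPM, with a ratio of -0.42 (-0.47 to -0.37) for SiglecF hi but 0.81 (0.72 to 0.90) for SiglecF lo. Together with *Col12a1*, these were lowest in WT SiglecF lo. *Pdgfra*, the PDGF receptor that marks fibroblasts, was also lowest there, with 7.80, 5.56, 1.97 and 3.35 TPM and a ratio of 0.55 (0.30 to 0.80) in SiglecF lo. Set against *Col1a1*, the TPM of *Tnc* was 0.0608, 0.0461, 0.0337 and 0.158, so its excess in *Cd300a-/-* SiglecF lo was also an excess over type I collagen.

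The other 7 genes past the threshold lower in *Cd300a-/-* SiglecF lo were not collagens. *Pdgfrb*, the PDGF receptor of pericytes, was at 10.6, 6.16, 17.6 and 7.99 TPM, with a ratio of -0.70 among SiglecF hi cells, against -1.05 among SiglecF lo cells. *Thy1*, a surface glycoprotein of fibroblasts and lymphocytes, was at 11.1, 6.69, 17.7 and 1.39 TPM, and the last value rests on 17 counts. Its SiglecF lo ratio of -2.96 (-3.40 to -2.52) was the lowest of the list. With *Serpinh1*, at -1.01 in SiglecF lo, *Pdgfrb* and *Thy1* made up the 3 genes past the threshold lower in both subsets, beside 3.24% of all genes. *Igfbp7*, abundant in vessels, was at 313, 241, 281 and 157 TPM (-0.83 in SiglecF lo). *Mgp* (-0.68), *Fbln1* (-0.74) and *Eln* (-0.56) completed the genes past it in SiglecF lo.

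Markers of other cells moved between the same libraries. Of 11 endothelial markers, 10 were past the threshold lower in *Cd300a-/-* SiglecF lo, beside 24.5% of all genes. In SiglecF hi 1 was lower and 3 were higher, beside 7.93% and 7.03%. The list summed to 351, 463, 589 and 183 TPM, with *Fabp4* the most abundant gene and the defining marker *Cdh5* at 16.9, 23.9, 25.1 and 9.91 TPM. Its lowest sum was therefore in the library where the basement membrane collagens were lowest. That library also held the lowest TPM of 44.9% of all genes. The highest sums lay apart, in WT SiglecF lo for the endothelial list (589 TPM) and in WT SiglecF hi for the basement membrane collagens (141 TPM). Of 9 smooth muscle and pericyte markers, 8 had a mean above 1 TPM. Of these, 6 were lower in *Cd300a-/-* SiglecF lo and 4 in SiglecF hi, beside 24.5% and 7.93% of all genes. This list summed to 125, 83.3, 829 and 330 TPM, with *Acta2* the most abundant gene and *Myh11* at 8.50, 5.05, 60.3 and 33.7 TPM. The CD45.2 gate should remove endothelial and mural cells, and whether they had a part in the lower basement membrane collagens was not tested.

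The fibroblast marker list, which holds none of the 40 genes, was set beside the fibrillar collagens by median genotype ratio. Among SiglecF hi cells the markers had a median of -0.25, the value of *Vim*, and the fibrillar collagens one of -0.65. Both medians were below 0, although the markers *Hsd11b1*, *Fap* and *Cthrc1* lay above 0. Among SiglecF lo cells both medians lay near 0, at 0.050 for the markers and -0.092 for the fibrillar collagens. The marker median was there the value of *Hsd11b1*, which was at 19.5, 21.5, 69.6 and 72.1 TPM. The list of 12, of which 11 had a mean above 1 TPM, summed to 2791, 2348, 2282 and 2321 TPM, but *Vim*, which leukocytes also make, accounted for most of it, and *Cilp* and *Lamc1*, themselves matrix genes, and *Ddr2* are also on lists given later. The defining marker *Tcf21* had 165, 131, 25 and 80 counts. In SiglecF hi cells 1 marker was past the threshold lower in *Cd300a-/-* and none higher, beside 7.93% and 7.03% of all genes. In SiglecF lo cells 4 were higher, *Cilp* among them, and 1 was lower, beside 20.7% and 24.5%. The ratio of *Tcf21* itself was -0.15 in the first subset and 1.19 in the second. In the latter *Ddr2* was the lower marker, at -0.72, and *Vim* and *Lamc1* lay near 0. The part of fibroblast number in these values was not tested.

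The other lists gave the following values. Cardiomyocyte markers (9 of 11 with a mean above 1 TPM) summed to 118, 166, 105 and 68.0 TPM, with *Atp2a2* the most abundant gene and *Myh6* at 2.07, 4.62, 0.945 and 0.171 TPM. Macrophage markers (11 of 11) summed to 6997, 6340, 2844 and 2704 TPM, with *C1qb* the most abundant, and so were lower in both SiglecF lo libraries, as the summed collagens were. Neutrophil genes (7 of 7) ran the opposite way, at 27432, 32371, 154341 and 202675 TPM, led by *S100a9*. Erythroid genes (5 of 5) summed to 893, 1000, 1417 and 780 TPM, led by *Hba-a2*. Eosinophil (1 of 5) and lymphocyte markers (4 of 7) were scarce, with sums of at most 6.61 and 12.6 TPM in any library, led by *Ccr3* and *Cd3d*. Of their defining markers, *Epx* had 0 counts in all 4 libraries, *Cd3e* in 3 and *Cd79a* in WT SiglecF lo.

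**Figure D3:**
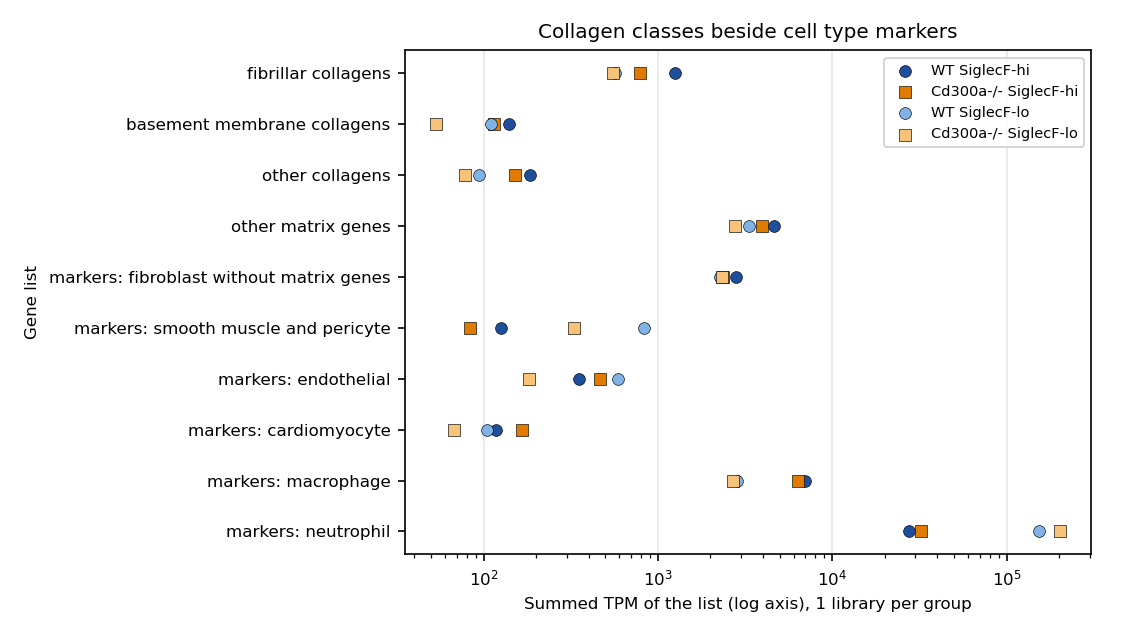
Summed TPM (log axis) of the collagen classes, the other matrix genes and 6 lists of cell type markers, 1 point per library, with blue circles for WT and orange squares for *Cd300a-/-*. Basement membrane collagens and endothelial markers are lowest in *Cd300a-/-* SiglecF lo (53.5 and 183 TPM), as most lists shown are, but differ in their highest library. Neutrophil genes lie far higher in both SiglecF lo libraries.

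Collagens and the other matrix genes were then set against each other within each comparison. In SiglecF hi cells, the log2 ratio of summed TPM of *Cd300a-/-* to WT was -0.58 (-0.59 to -0.56) for the collagens and -0.21 (-0.23 to -0.20) for the other genes, a difference of -0.36 (-0.39 to -0.34). In SiglecF lo cells it was -0.17 (-0.19 to -0.14) and -0.28 (-0.30 to -0.25), a difference of 0.11 (0.074 to 0.15). So the collagens had the lower ratio in SiglecF hi and the higher one in SiglecF lo, but with TMM-scaled counts the SiglecF lo ratios were -0.14 and -0.13, which turns the latter order, and the medians of both classes were close in each subset. The sums are led by abundant genes such as *Gsn* and *Mgp*. Without 12 genes that other heart cells or leukocytes also make, the difference was -0.25 for SiglecF hi, and for SiglecF lo it turned to -0.015.

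The second question was how the subsets differed. TPM ratios of SiglecF hi to SiglecF lo were above 0 for most genes, with medians over all genes of 0.57 in WT and 0.64 in *Cd300a-/-*. All 7 neutrophil genes were past the threshold below it in both genotypes, and their part in this shift was not tested. Ratios between subsets are therefore given relative to that median. The same 4 libraries enter both these ratios and the genotype ratios.

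In WT, 10 of the 40 genes were past the threshold higher in SiglecF hi, beside 23.6% of all genes, and 5 were lower, beside 23.9%. The share of higher genes is close to the background, and that of lower genes is below it. The median was 0.31 for the collagens and 0.32 for the other matrix genes. Among all genes 2710 were higher and 2740 lower. Without centring these counts were 6241 and 1076, with 28 and 3 of the 40 genes, and with TMM-scaled counts they were 3294 and 2431, with 13 and 5 of the 40 genes.

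All 5 fibrillar collagens lay above 0 in WT, from 0.22 for *Col5a2* to 0.68 (0.64 to 0.72) for *Col3a1*, and *Col1a1* was at 0.55 (0.50 to 0.60). *Col6a3* (0.80), *Col12a1* (0.88) and *Col14a1* (0.52) were also past the threshold, and *Col12a1* was at 2.33 with a pseudocount of 0.1 TPM and 2.30 with TMM-scaled counts. Of the other genes, *Tnc* (1.20), *Pdgfra* (1.00), *Pcolce* (0.91), *Postn* (0.72) and *Lum* (0.53) were higher in SiglecF hi. Lower were *Col18a1*, at -2.12 (-2.32 to -1.92), *Pdgfrb* (-1.25), *Thy1* (-1.20), *Eln* (-0.97) and *Mgp* (-0.66). In the same pair all 8 smooth muscle and pericyte markers were lower in SiglecF hi, and 10 of 11 endothelial markers, beside 23.9% of all genes. Of 11 fibroblast markers, 6 were higher and 2 lower, beside 23.6% and 23.9% of all genes. Their median was 0.61, the value of the matrix gene *Lamc1*. The log2 ratio of the summed TPM of the fibroblast markers, led by *Vim*, was -0.28. The part of any of these cell types in these ratios was not tested.

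In *Cd300a-/-*, 5 of the 40 genes were higher in SiglecF hi, beside 23.6% of all genes, and 6 were lower, beside 24.7%. The median was 0.039 for the collagens and -0.17 for the other matrix genes. Both counts are shares below those of all genes. Among all genes 2713 were higher and 2832 lower. The counts were 6646 and 973 without centring, with 18 and 2 of the 40 genes, and 3558 and 2357 with TMM-scaled counts, with 5 and 5 of the 40 genes.

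In this genotype *Col15a1* (0.67), *Col4a2* (0.64) and *Col6a1* (0.53) were higher, with *Fbln1* (1.13) and *Thy1* (1.04), and of the fibrillar collagens only *Col3a1* (0.12) lay above 0, although all 5 did without centring. Lower were *Tnc*, at -2.05 (-2.19 to -1.91), *Col18a1* (-1.21), *Pdgfrb* (-0.97), *Lox* (-0.59), *Postn* (-0.58) and *Fbln2* (-0.55). The last 3 lay above 0 when ratios were not centred. Only *Col18a1* and *Pdgfrb* were lower in SiglecF hi past the threshold in both genotypes, beside 13.4% of all genes, and *Tnc*, *Thy1* and *Postn* were past it with opposite signs in the 2 genotypes, beside 4.79%. Of the endothelial markers 3 of 11 were higher and 1 lower in SiglecF hi. Of the fibroblast markers 1 of 11 was higher and 5 were lower, and 7 smooth muscle and pericyte markers were lower. Of all genes 23.6% were higher and 24.7% lower. The part of these cell types in these ratios was not tested either.

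The log2 ratio of summed TPM between subsets in WT was 0.46 (0.44 to 0.48) for the collagens and -0.10 (-0.12 to -0.084) for the other matrix genes, a difference of 0.56 (0.53 to 0.59). Without the 12 genes that other cells also make, the ratio for the other matrix genes turned to 0.37 and the difference was 0.17. In *Cd300a-/-* it was -0.019 (-0.042 to 0.0035) and -0.11 (-0.13 to -0.087), a difference of 0.089 (0.058 to 0.12). That last difference turned to -0.060 without the same 12 genes and to -0.042 without the most abundant gene of each class. With TMM-scaled counts the ratio for the other matrix genes in WT was 0.024 and that for the collagens in *Cd300a-/-* was 0.031, and all of these sums were above 0 without centring. The fibrillar class was at 0.57 (0.54 to 0.59) in WT and -0.13 (-0.16 to -0.11) in *Cd300a-/-*, where it was 0.51 without centring. Basement membrane collagens were at -0.21 (-0.27 to -0.16) in WT and 0.47 (0.40 to 0.54) in *Cd300a-/-*, and the WT value was 0.36 without centring.

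Genes that act with the list were examined as well. Of 29 collagen chains outside it, only 7 had a mean above 1 TPM, and the highest were *Col5a3*, *Col11a2* and *Col16a1*, with means of 4.63, 4.08 and 3.77 TPM. In *Cd300a-/-* against WT, 1 was higher in SiglecF hi, beside 7.03% of all genes, and 3 were higher and 3 lower in SiglecF lo, beside 20.7% and 24.5%. *Col5a3*, a further chain of type V collagen, was at 6.31, 6.14, 1.78 and 4.30 TPM, with ratios of -0.035 and 0.93, and so did not follow *Col5a1* and *Col5a2*. *Col11a2*, also of the fibrillar family, had ratios of -0.066 and -0.14. *Col4a5*, another basement membrane chain, was at 2.44, 3.08, 2.74 and 0.324 TPM, and so shared its lowest library with *Col4a1* and *Col4a2*, at 12 counts there. The collagen transcripts of these libraries were thus mainly those of the chains described above.

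All 19 genes of collagen synthesis had a mean above 1 TPM, led by the chaperones *Ppib* and *P4hb*, with means of 352 and 347 TPM, which many cells use. In SiglecF hi, 4 were past the threshold lower in *Cd300a-/-* and 2 higher, beside 7.93% and 7.03% of all genes, with *Fkbp10*, a collagen chaperone, at 12.9, 4.58, 8.44 and 3.89 TPM (-1.32). In SiglecF lo, 7 were lower and 3 higher, beside 24.5% and 20.7% of all genes, with the prolyl isomerase *Fkbp14* (-1.80) and *P3h4* (-1.65) the lowest, at 13 and 7 counts in *Cd300a-/-*. Of 4 maturation genes above 1 TPM, *Loxl3* was lower in both subsets (-1.07 and -1.26), *Adamts2* was lower in SiglecF hi only (-0.54), *Bmp1* was higher in SiglecF lo only (0.57) and *Pcolce2* was within the threshold in both.

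Of 10 laminin and basement membrane genes outside the collagens, 3 were lower and 1 higher in *Cd300a-/-* SiglecF hi, beside 7.93% and 7.03% of all genes, and 2 were lower and 2 higher in SiglecF lo, near the 24.5% and 20.7% of all genes. Their sum was 204, 159, 118 and 108 TPM, a log2 ratio of -0.12 (-0.18 to -0.058) in SiglecF lo, so they were not as low there as the basement membrane collagens. *Lama5*, the α5 chain of vessel laminins, was the lowest in SiglecF lo (-1.29), while *Nid2* was the highest (0.94). *Lamc1* and *Nid1* were the most abundant, with means of 34.7 and 30.2 TPM.

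Of 19 further matrix genes with a mean above 1 TPM, 9 were lower and none was higher in *Cd300a-/-* SiglecF hi, beside 7.93% and 7.03% of all genes, and 2 were lower and 4 higher in SiglecF lo, beside 24.5% and 20.7%. The 3 most abundant, *Spp1*, *Tgfbi* and *Thbs1*, are also macrophage or neutrophil products. *Spp1*, encoding osteopontin, was at 4111, 2815, 1349 and 884 TPM. *Emilin1*, an elastic fibre glycoprotein, had a ratio of -0.71 in SiglecF hi, and *Cilp*, a product of cardiac fibroblasts, one of 1.07 in SiglecF lo. Collagen receptors and uptake genes, 7 of 10 above 1 TPM, were led by *Itgb1*, *Mrc1* and *Lair1*. Against the same shares of all genes, 2 were lower in SiglecF hi, and 1 was higher and 2 were lower in SiglecF lo. *Ddr1* was at -1.38 in SiglecF hi, from 99 counts in WT and 11 in *Cd300a-/-*.

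Some of the genes lie beside each other in the genome (coordinates as in the files, GRCm39). *Col4a1* (chr8:11248423-11362826, minus strand) and *Col4a2* (chr8:11362805-11499287, plus strand) are arranged head to head, and their ends overlap on opposite strands. *Col3a1* (chr1:45350698-45388866) and *Col5a2* (chr1:45413481-45542442) lie 24615 bases apart, and the intervals of their SiglecF hi genotype ratios overlapped. *Dcn* and *Lum* lie 46985 bases apart on chromosome 10 and had SiglecF hi genotype ratios of -0.33 and 0.0068. *Igfbp7* overlaps *Polr2b*, at up to 37.8 TPM, and *Col18a1* overlaps *Slc19a1*, at up to 1.77 TPM, each on the opposite strand. The library kit does not mark strand, so reads from such overlaps cannot be told apart.

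Promoter windows of 24 of the genes, 31 windows in all, were found in RefSeq (GRCm38.p6), and the 250 bases before the start were searched on both strands. CCAAT, the core of the box bound by NF-Y, was in 6 of the 31 windows (5 genes), beside 33.8% of all 32851 windows. TATAAA was in 4 windows (3 genes), beside 12.4% of all windows, and GGGCGG, the core of a GC box, in 20 windows (16 genes), beside 32.7%. These motifs share no bases in the windows shown. *Col1a2* and *Col3a1* are shown because they were lower together in *Cd300a-/-* SiglecF hi, and *Tnc* because it differed most between subsets. Capitals mark the motifs on either strand, and a match is a description, not a binding site.
*Col1a2*, chr6:4505368-4505617, plus strand: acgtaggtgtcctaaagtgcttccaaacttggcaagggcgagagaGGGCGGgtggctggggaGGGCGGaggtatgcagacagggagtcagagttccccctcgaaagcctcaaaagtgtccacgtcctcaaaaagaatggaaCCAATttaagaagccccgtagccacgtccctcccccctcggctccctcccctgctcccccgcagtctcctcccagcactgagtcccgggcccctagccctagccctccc
*Col3a1*, chr1:45311288-45311537, plus strand: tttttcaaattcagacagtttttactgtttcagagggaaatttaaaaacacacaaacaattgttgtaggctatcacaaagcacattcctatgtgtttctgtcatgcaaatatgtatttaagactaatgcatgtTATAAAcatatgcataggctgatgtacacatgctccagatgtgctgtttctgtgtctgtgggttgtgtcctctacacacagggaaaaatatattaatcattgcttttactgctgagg
*Tnc*, chr4:64047016-64047265, minus strand: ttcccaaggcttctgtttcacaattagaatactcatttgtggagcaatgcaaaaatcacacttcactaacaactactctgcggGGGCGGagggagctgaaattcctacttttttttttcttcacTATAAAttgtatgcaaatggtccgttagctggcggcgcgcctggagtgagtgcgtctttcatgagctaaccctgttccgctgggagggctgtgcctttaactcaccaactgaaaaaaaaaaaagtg
The windows differ although the genes of the first pair had nearly the same ratio. *Col1a2* holds 1 CCAAT and 2 GGGCGG and is 62% G and C. *Col3a1* holds 1 TATAAA and is 35.2% G and C. The *Tnc* window shown holds 1 TATAAA and 1 GGGCGG and is 44.8% G and C. The other *Tnc* window overlaps the one shown and is 51.2% G and C. It holds the same TATAAA and GGGCGG, so these sites are counted in both windows.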

How the data were processed

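Poly(A) RNA of sorted cells was sequenced in 4 libraries, 1 per genotype and subset, and the authors computed TPM with CLC Genomics Workbench; mapping settings are not stated. The genome build in the submitters' processing notes is GRCm39. The deposited tables give, per gene, total counts and TPM, both used here. The deposited RPKM and a deposited signal, counts scaled by 1 factor per library, were not used here.

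Genotype ratios were taken from TPM as deposited. Subset ratios were centred on the median of all genes with a mean above 1 TPM, with a pseudocount of 1 TPM for single genes and none for sums. Intervals come from the counts, and a group at or under 3 counts would be a bound. Every gene of the list is named, and from each accompanying list some of its 3 most abundant genes and of its 2 largest changes per comparison, and the most abundant and defining markers. The result of 1 further marker list is not reported here. The members and lists were chosen with earlier results of these data known. Alternatives were a pseudocount of 0.1 TPM, a mean above 10 TPM or no limit, a threshold of 1, TMM-scaled counts, the other centring, and lists without shared or most abundant genes. Python 3.11.15 with pandas 2.3.3 and scipy 1.17.1, and edgeR 4.0.16 in R 4.3.3 for TMM factors, were used. Ratios and intervals were tested on simulated Poisson counts, which held counting error only and left out genes with few counts. A CD45.2 gate should remove fibroblasts, endothelial and mural cells and cardiomyocytes, and which cells the transcripts came from was not tested.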

Additional observations from a re-analysis of the deposited data

Results flagged for a closer look

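For 6 of the 40 genes, the log2 ratios of *Cd300a-/-* to WT lay on opposite sides of 0 in the SiglecF hi and SiglecF lo subsets, each with a counting interval that did not include 0. The same was so for 15.9% of all genes with a mean above 1 TPM, a share near that of the list. *Tnc* differed most, with a SiglecF lo ratio that exceeded the SiglecF hi ratio by 3.18 (2.94 to 3.41). The same difference was 1.23 (1.13 to 1.33) for *Postn*, 0.97 (0.68 to 1.27) for *Pdgfra*, 0.86 (0.79 to 0.93) for *Col1a1* and 0.84 (0.59 to 1.08) for *Loxl2*. *Eln* went the other way, at -0.87 (-1.14 to -0.60). With 1 library per group these differences were not tested.

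The summed TPM of 3 marker lists met the same description. The SiglecF lo ratio minus the SiglecF hi ratio was -2.08 for the endothelial list, -1.12 for the cardiomyocyte list and -1.02 for the erythroid list. Each list was higher in *Cd300a-/-* among SiglecF hi cells (0.40, 0.50 and 0.16) and lower among SiglecF lo cells (-1.69, -0.62 and -0.86). These differences were not tested either.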

How the results depend on the processing

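A count is said to stay near the value given when it lies within 1.5 times it. A ratio or difference stays near when it lies inside the counting interval of the value given, and a median when it moved by less than the median width to one side of its genes' intervals. With a pseudocount of 0.1 TPM, all 8 counts of genes past the threshold and all 8 medians stayed near the values given, as did 140 ratios of single genes, while 20 moved, *Col12a1* most, from 0.88 to 2.33 between subsets in WT and from 1.24 to 2.67 between genotypes in SiglecF lo. With TMM-scaled counts this held for the 8 counts, 7 of 8 medians and 148 single ratios, while 12 moved. No paired analysis was possible because each group had 1 library and the labels give no replicate numbers, and for the same reason no library could be left out. Except where an alternative by its construction uses fewer genes or another threshold, the cause was not tested.

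With a threshold of 1, no gene was lower in *Cd300a-/-* SiglecF hi (0 in place of 14). In SiglecF lo, 2 genes were then higher and 5 lower. Between subsets 1 was higher and 3 lower in WT, and 2 were higher and 2 lower in *Cd300a-/-*. With a mean above 10 TPM, 2 genes were higher in *Cd300a-/-* SiglecF lo and 3 were lower in WT SiglecF hi than in WT SiglecF lo.

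Without a limit on TPM, the median of all genes that subset ratios are centred on was another one. In WT 20 genes were then higher in SiglecF hi, with medians of 0.50 for the collagens and 0.51 for the other matrix genes. In *Cd300a-/-* 10 were higher and 3 lower, with medians of 0.26 and 0.049.

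With TMM-scaled counts, the ratio of summed values for the other matrix genes was -0.27 between genotypes in SiglecF hi and -0.13 in SiglecF lo, where the collagens were at -0.14, so that the order of the classes turned. Between subsets in WT it was 0.024, and that for the collagens 0.48. In *Cd300a-/-* the collagens had a median of 0.17 and a ratio of sums of 0.031.

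With centred genotype ratios, the SiglecF hi sums gave -0.60 for the collagens and -0.24 for the other matrix genes. Without centring of subset ratios, 28 genes were higher and 3 lower in WT, with medians of 0.88 and 0.89 and ratios of sums of 1.03 and 0.47 for the collagens and the other matrix genes. In *Cd300a-/-* 18 were higher and 2 lower, with medians of 0.68 and 0.47 and ratios of sums of 0.62 and 0.53. *Postn* (0.060), *Fbln2* (0.092) and *Lox* (0.051) then changed sign between subsets in *Cd300a-/-*. Of the single ratios, 79 stayed near the values given and 78 moved without a called value changing sign.

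Without the most abundant gene of each class (*Col3a1* and *Gsn*), the genotype ratio of sums in SiglecF hi was -0.53 for the collagens and -0.32 for the other matrix genes, a difference of -0.21. In SiglecF lo the other matrix genes were at -0.39 and the difference was 0.22. Between subsets the sums gave 0.34 and -0.047 in WT, a difference of 0.39, and -0.087 and -0.046 in *Cd300a-/-*, where the difference turned to -0.042.

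Without the 12 genes that other heart cells or leukocytes also make, the collagens in SiglecF hi had a median of -0.64 and a genotype ratio of sums of -0.61, and the other matrix genes one of -0.36, a difference of -0.25. In SiglecF lo the ratios were -0.062 and -0.046, and the difference turned to -0.015. Between subsets in WT the collagens had a median of 0.45, the sums gave 0.54 and 0.37, and the difference was 0.17. In *Cd300a-/-* the median was -0.21, the sums gave -0.069 and -0.0091, and the difference turned to -0.060.

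Scaling alternatives for the fibrillar and basement membrane classes were chosen after seeing the data. With TMM-scaled counts 7 of 8 class ratios stayed near the values given, and with the other centring 3 did. Depth limits *Col12a1* and *Thy1* most, with 13 and 17 counts in their lowest library.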
